A study of Canis lupus familiaris with 4 samples.

Results

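Heat shock proteins and their DNAJ partners were followed in canine CD8+ T cells that had been cultured with lymphoma exosomes or with PBS. Members were taken by symbol: every row whose symbol begins with DNAJ, HSPA, HSPB, HSPD, HSPE, HSPH or HSP90, together with HSF1, HSF2 and BAG3. This gave 59 genes, of which 58 were among the 11691 genes present in both deposited tables. HSPA12A was listed for pair 2 alone, at 1.02 with exosomes and 1.27 with PBS, from 13 and 12 reads. By the known place of their proteins, 32 of the 58 are cytosolic or nuclear, 13 belong to the endoplasmic reticulum (ER), 8 to mitochondria and 5 elsewhere or to a place that is unclear. The group holds 36 J proteins and 22 other genes.

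The exosome group was CD8+ T cells of healthy mixed-breed dogs, given vesicles shed by the dog lymphoma line CLBL-1 (diffuse large B cell type). The PBS group was cells of the same kind and culture with the vehicle alone. In both groups the blood mononuclear cells had first been grown for 14 to 20 days with human IL-2 at 2500 IU/mL and 2-mercaptoethanol at 50 µM, and the medium with exosomes or PBS held both agents too. Per the labels, the samples numbered 1 were female and those numbered 2 male, exposure lasted 48 h, and doses of 50, 100 and 200 µg/mL are listed, while the design text names 50 µg/mL for the sequenced cells. Each group held 2 libraries, and each deposited table sets 1 exosome library against 1 PBS library. The table called pair 1 here carries 24 h in its column names and the table called pair 2 carries 48 h, so animal, sex and possibly time of exposure cannot be told apart between the pairs.

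HSP70 chaperones bind exposed stretches of unfolded protein and let go of them in a cycle of ATP hydrolysis and nucleotide exchange. J proteins, the DNAJ family, bring clients to HSP70 and trigger hydrolysis, whereas HSP110 proteins and factors such as HSPBP1 and BAG3 drive the exchange. HSP90 acts later on kinases and receptors, among them client proteins of T cell signalling. The cytosol, the ER and mitochondria each have their own set. The heat-inducible part of the cytosolic set is controlled by the transcription factor HSF1, and much of the ER set by the unfolded protein response.

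Values are read counts divided by 1 factor per library, as the authors deposited them, and are called scaled counts below. Each value is a single library. Reads recovered over the shared genes numbered 10056143 and 12046358 in the exosome libraries and 12325953 and 9417298 in the PBS libraries of pairs 1 and 2. CD8A stood at 286 and 453 with exosomes and at 385 and 488 with PBS. CD3E stood at 530 and 750 with exosomes and at 675 and 873 with PBS, so these T cell markers were present in every library. The 6 CD8 T cell markers summed to 1504 and 3016 with exosomes and 1833 and 3166 with PBS, so levels differed between the pairs. Among them, CD8B stood at 72.7 and 528 with exosomes and at 73.4 and 479 with PBS. Of the B cell markers, MS4A1 stood at 5.62 and 3.62 with exosomes and 10.7 and 4.46 with PBS. All 3 measured NK cell markers (KLRB1, NCR1 and NCR3) were lower with exosomes in each pair. Their sum was 106 and 105 with exosomes and 253 and 162 with PBS. KLRB1 was higher in pair 1 than in pair 2, at 85.5 and 9.99 with exosomes and 173 and 19.6 with PBS. NCR1 and NCR3 had the opposite order. Of 4 neutrophil markers 2 were measured, with a sum of 243 and 122 with exosomes and 590 and 225 with PBS, and 1 of them, MMP9, was called lower by limma (-1.32, adjusted p = 0.0326). The other is a row shared by S100A6 and S100A8, so its reads cannot be given to either gene. It stood at 96.6 and 40.3 with exosomes and at 151 and 53.8 with PBS. Some other markers were higher with exosomes in pair 1. The sum of the 3 CD4 T cell markers was 41.8 and 55.5 with exosomes and 29.7 and 61.5 with PBS, and that of the 2 plasma cell markers measured of 4 was 243 and 123 with exosomes and 159 and 120 with PBS. Most of the plasma cell sum was XBP1, a gene of the unfolded protein response whose values are given below. JCHAIN, the other marker, stood at 18.5 and 25.7 with exosomes and at 15.1 and 26.1 with PBS. Of the dendritic and platelet markers, the row FLT3|URAD stood at 23.6 and 0.708 with exosomes and 3.45 and 0.106 with PBS, and ITGB3 had log2 folds of 2.49 and 0.41 (limma adjusted p = 0.0565 and 0.0767). CD83, a dendritic marker, had log2 folds of 0.13 and 0.31, and ITGA2B, a platelet marker, -0.15 and 0.60. The 2 monocyte rows of 5 were led by the shared row of ITGAM, ITGAX and ITGAD. Their sum was 385 and 73.8 with exosomes and 640 and 53.4 with PBS, and so lower with exosomes in pair 1. CD68, the other row, stood at 2.17 and 1.02 with exosomes and 0.471 and 0.849 with PBS. The part that other cells have in the values below was not tested. In such bulk samples, fewer cells of a kind and less RNA per cell cannot be told apart.

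Cytosolic HSP70 transcripts tended to be lower with exosomes, ER chaperone transcripts were higher in pair 1 but mostly lower or level in pair 2, and most mitochondrial ones differed little or in 1 pair only. No single member passed the test across all genes. By limma on log2(scaled count + 1) with the pair as a block, 0 of 58 members had an adjusted p under 0.05, where 0.744% of all genes did. At an unadjusted p under 0.05, 6 members were lower (HSP90AB1, HSPBP1, HSPA8, DNAJC9, HSPH1 and DNAJC6) and 3 were higher (DNAJC4, DNAJB9 and DNAJB2), which is 10.3% and 5.17% of the members, against 9.96% and 5.95% of all genes. edgeR also called 0 members and 0 genes, and DESeq2 called 2 of the 52 members to which it gave an adjusted p, HSPA8 and HSP90AB1, with 1.66% of its genes called. Log2 folds below are exosome over PBS on the log2(scaled count + 1) scale, which understates differences of low genes. The standard error (SE) is limma's moderated one. It rests on 1 residual and 11.4 prior degrees of freedom, so it reflects mostly the variance of all genes and not the spread of the 2 pairs.

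**Figure D1:**
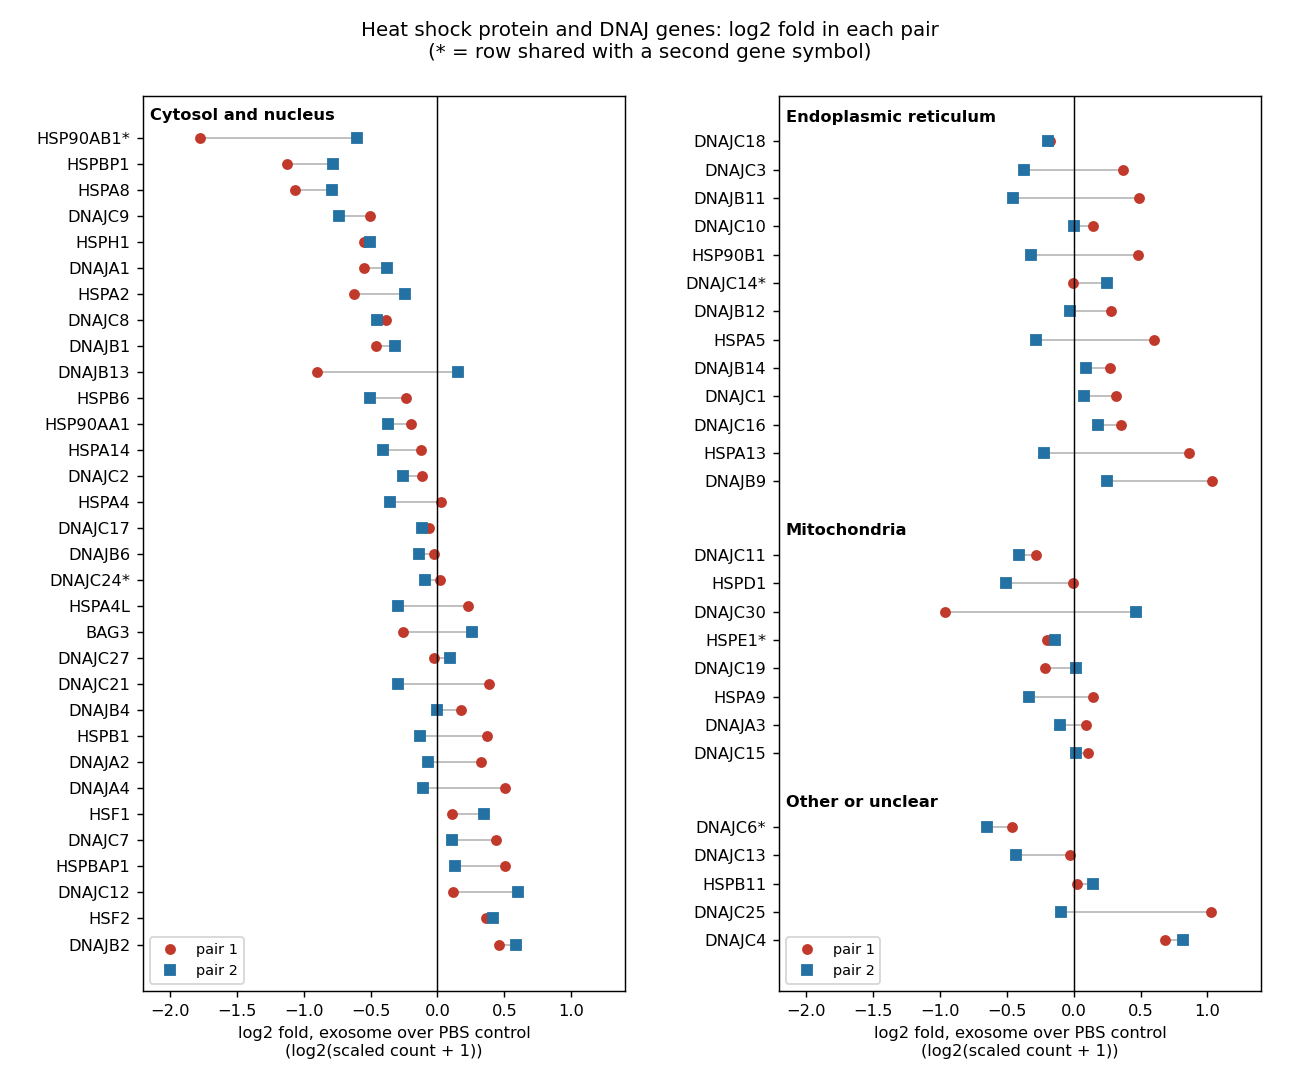
Log2 fold, exosome over PBS (x axis, log2(scaled count + 1)), of the 58 members in pair 1 (circles) and pair 2 (squares), grouped by compartment and ordered by their mean. Among ER members 11 of 13 circles lie right of 0, and among cytosolic members HSP90AB1, HSPBP1 and HSPA8 lie farthest left.

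HSPA8, the constitutive cytosolic HSP70 known as HSC70 (ENSCAFG00000011666), stood at 603 with exosomes, against 1263 with PBS, in pair 1. In pair 2 it stood at 1495 with exosomes, against 2585 with PBS. Each exosome value was below the PBS value of its own pair, but the groups overlapped, since the exosome library of pair 2 exceeded the PBS library of pair 1. The ratio was 0.478 in pair 1 (95% counting interval 0.464 to 0.492) and 0.578 in pair 2 (0.567 to 0.589). These intervals are exact binomial ones on recovered reads and cover counting error only. Its log2 fold was -0.93 ± 0.23 (SE, n = 2 pairs, limma adjusted p = 0.07), and -0.27 without the exosome library of pair 1. That fit has no pair block, as for every library left out below, so its fold also holds the level difference between the pairs. The call depended on the test: the adjusted p was 0.00873 by DESeq2, 0.00447 by limma on genes with a mean scaled count of at least 10 and 0.00324 with a pseudocount of 5, and it ran from 0.00324 to 0.999 over the 9 alternatives that kept all 4 libraries. In these 2 limma fits 7.6% and 5.22% of all genes were called. A log2 fold of -1 or below in pair 1 was found for 3 members, HSPA8, HSP90AB1 and HSPBP1 (5.17% of members, 4.52% of all genes), and 1 or above for DNAJB9 and DNAJC25 (3.45%, against 2.57%). In pair 2, 0 members reached either limit, and 1.38% and 1.11% of all genes did.

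The other cytosolic HSP70 genes measured in both tables, HSPA2 and HSPA14, also had lower values in both pairs. HSPA2, an HSP70 best known from the testis, stood at 56.2 and 111 with exosomes and at 87.1 and 131 with PBS in pairs 1 and 2. HSPA14, an HSP70 bound to ribosomes, stood at 41.3 and 44.3 with exosomes and at 45.1 and 59.0 with PBS. Its difference in pair 1 was within counting error (ratio 0.916, counting interval 0.805 to 1.04). Both of its exosome values lay below both PBS values. Such separation of the groups was seen for 7 members in the lower and 8 in the higher direction, or 12.1% and 13.8%, while 14.3% and 12.9% of all genes showed it. HSP70 genes have close relatives and processed copies, and how reads matching several places were counted is not given in the sources used here, so the split between such copies is uncertain.

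HSPH1, an HSP110 protein that recharges HSP70 and is induced by heat, stood at 38.4 and 72.3 with exosomes, against 56.7 and 103 with PBS. The pairs gave -0.55 and -0.50 on the log2 scale, a small difference between them (-0.53 ± 0.23, SE, n = 2 pairs, limma adjusted p = 0.278), but the fold was -0.08 without the exosome library of pair 1 and -0.10 without the PBS library of pair 2. HSPA4, a second HSP110 protein, did not share this: it stood at 261 and 270 with exosomes and at 256 and 346 with PBS, a log2 fold of 0.03 in pair 1 and -0.36 in pair 2. HSPA4L, the third, had folds of 0.22 and -0.29.

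Among HSP90 genes, HSP90AA1, the inducible cytosolic form, stood at 558 and 692 with exosomes, against 642 and 893 with PBS. It was lower with exosomes in both pairs by a small amount, with ratios of 0.869 (counting interval 0.84 to 0.899) and 0.775 (0.752 to 0.799) and a log2 fold of -0.28 ± 0.23 (SE, n = 2 pairs, limma adjusted p = 0.627), or -0.05 without the PBS library of pair 2. The row that holds HSP90AB1, the constitutive form, had the most negative mean fold of all members. It stood at 16.8 and 93.5 with exosomes, against 59.8 and 142 with PBS, a log2 fold of -1.78 in pair 1 and -0.60 in pair 2 (-1.19 ± 0.28, SE, n = 2 pairs, limma adjusted p = 0.0647, from 0.000773 to 0.999 over the 9 alternatives with all libraries). The lowest of these came from limma with a variance trend, where 5.19% of all genes were called. Without the exosome library of pair 1, its fold was 0.02. This row also carries the symbol SLC29A1, a nucleoside transporter that is the next coding gene in the naming reference, so its reads cannot be given to either gene.

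**Figure D2:**
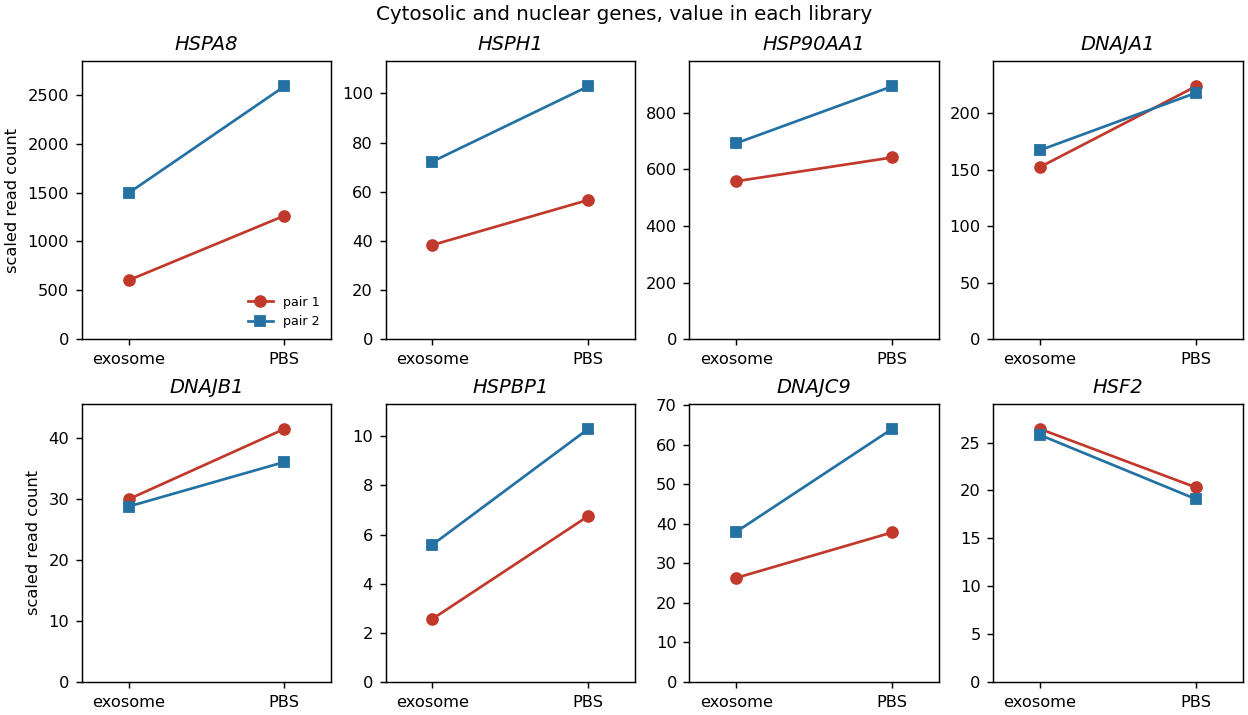
Scaled read count (y axis, from 0) of 8 cytosolic or nuclear genes in the exosome and PBS libraries, with a line joining the libraries of a pair (circles, pair 1; squares, pair 2). In 7 of the panels both lines are lower at the exosome end, and in the HSF2 panel both are higher there.

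Of 17 cytosolic J proteins, 7 were lower and 3 higher with exosomes in both pairs (41.2% and 17.6%, against 32.5% and 27.8% of all genes). The remaining 7 differed in sign between pairs, which is 41.2%, against 39.7% of all genes. DNAJA1, the main type A partner of HSC70, stood at 153 and 167 with exosomes and at 224 and 218 with PBS. DNAJB1, the heat-inducible HSP40, stood at 30.0 and 28.8 with exosomes and at 41.5 and 36.1 with PBS. For both genes the exosome libraries lay below both PBS libraries, with log2 folds of -0.47 ± 0.23 and -0.39 ± 0.23 (SE, n = 2 pairs, limma adjusted p = 0.35 and 0.455).

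DNAJC9, a J protein that also handles histones, stood at 26.3 and 38.0 with exosomes and at 37.8 and 64.0 with PBS. Its folds were -0.51 and -0.74, and its mean was -0.62 ± 0.23 (SE, n = 2 pairs, limma adjusted p = 0.206), or -0.25 without the PBS library of pair 2. DNAJC8, a J protein of the spliceosome, had folds of -0.38 and -0.46. In the other direction, DNAJB2, a J protein with ubiquitin-binding motifs that was singled out after its values were seen, stood at 36.5 and 45.1 with exosomes and 26.3 and 29.6 with PBS (0.52 ± 0.23, SE, n = 2 pairs, limma adjusted p = 0.284). DNAJC7, which bridges HSP70 and HSP90, stood at 169 and 140 with exosomes, against 125 and 130 with PBS. DNAJB6, a suppressor of protein aggregation, was nearly level, at 69.1 and 54.4 with exosomes and 70.2 and 60.0 with PBS. DNAJA2 and DNAJA4, relatives of DNAJA1, had folds of 0.32 and 0.50 in pair 1 and of -0.07 and -0.10 in pair 2, unlike DNAJA1 in pair 1. DNAJC2 and DNAJC17, a ribosome-bound and a nuclear J protein, had small folds below 0 in both pairs (-0.12 and -0.26 for DNAJC2, -0.06 and -0.12 for DNAJC17). DNAJC24, DNAJC27 and DNAJB4 lay between -0.09 and 0.18 in either pair. DNAJC12, which serves aromatic amino acid hydroxylases, stood at 13.4 and 2.12 with exosomes and at 12.3 and 1.06 with PBS.

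Among exchange factors and small heat shock proteins, HSPBP1, which releases nucleotide from HSP70, stood at 2.56 and 5.58 with exosomes and at 6.75 and 10.3 with PBS. Its fold was -0.95 ± 0.23 (SE, n = 2 pairs, limma adjusted p = 0.0676), or -0.51 without the exosome library of pair 1, and it rested on 26 and 71 reads with exosomes and 86 and 97 with PBS, and the counting interval of its ratio was wide (0.235 to 0.595 in pair 1 and 0.394 to 0.744 in pair 2). BAG3, a partner of HSP70 in selective autophagy, had 1 and 67 reads with exosomes and 4 and 40 with PBS, at scaled counts of 0.0986 and 5.27 with exosomes and 0.314 and 4.25 with PBS. In pair 1 its ratio of 0.314 had an interval of 0.00638 to 3.17, so no difference could be detected at that depth. HSPB1, the small heat shock protein HSP27, was also low, at 4.14 and 5.35 with exosomes and 2.98 and 5.94 with PBS, and HSPB6, a relative, had folds of -0.23 and -0.50. HSPBAP1, a partner of HSPB1, stood at 36.3 and 33.6 with exosomes and at 25.3 and 30.6 with PBS. In all, 51 of the 58 members had 50 or more reads in whichever library was higher, in each pair, and HSPB6, BAG3, DNAJC27, HSPB1, DNAJC12, DNAJC15 and DNAJC6 did not.

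The heat shock transcription factors did not share the lower values of HSPA8 and DNAJB1. HSF1, the main activator of the heat shock response, stood at 29.0 and 46.6 with exosomes and at 26.8 and 36.4 with PBS (0.23 ± 0.23, SE, n = 2 pairs, limma adjusted p = 0.713), and without the exosome library of pair 2 its fold was -0.10. HSF2, a second heat shock factor, stood at 26.4 and 25.8 with exosomes and at 20.3 and 19.1 with PBS. The exosome libraries were above both PBS libraries, with folds of 0.36 and 0.41 that nearly coincided in the pairs (0.39 ± 0.23, SE, n = 2 pairs, limma adjusted p = 0.45).

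Over all 32 cytosolic and nuclear members, 15 were lower in both pairs (46.9%, where 32.5% of all genes were), 6 were higher in both (18.8%, against 27.8%) and 11 differed in sign. Their median was -0.05 in pair 1 and -0.19 in pair 2 on the log2 scale, against -0.02 and -0.03 over all genes. The 15 members that are no J proteins had medians of -0.20 and -0.36, and the 17 J proteins -0.02 and -0.10. A log2 fold of -0.5 or below in both pairs was found for 5 members, namely HSP90AB1, HSPBP1, HSPA8, DNAJC9 and HSPH1, or 8.62% of the 58, where 5.13% of all genes had one. All 5 are cytosolic.

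A list of 20 proliferation genes pointed the same way. Of these, 19 were lower with exosomes in each pair, and limma called 3 of them (MCM5, RRM2 and CCNE2). AURKB was the exception, higher in pair 1 and lower in pair 2. The list's median was -0.89 for pair 1 and -0.95 for pair 2. Their summed scaled count was 1340 and 2749 with exosomes and 2373 and 5460 with PBS. HSPA8 and DNAJC9 followed the order of this sum over the 4 libraries, highest with PBS in pair 2 and lowest with exosomes in pair 1. So did HSPH1, HSP90AA1, HSPA2, HSPD1, DNAJC2, DNAJC17 and the shared rows of HSP90AB1 and HSPE1. Most members did not. Within the list, PCNA, CCNA2, CDK1, CCNE2, PLK1, BIRC5 and AURKB did not follow it either. PCNA, for example, stood at 122 with exosomes in pair 2 and at 127 with PBS in pair 1. The share of all genes with this order was not counted. The part that proliferation has in the values of these members was not tested.

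In the ER set, HSPA5, the HSP70 of the ER known as BiP (ENSCAFG00000020196), was higher with exosomes in pair 1 and lower in pair 2. It stood at 1046 with exosomes, against 689 with PBS, in pair 1 and at 450 with exosomes, against 548 with PBS, in pair 2. The ratio was 1.52 (counting interval 1.48 to 1.56) in pair 1 and 0.822 (0.791 to 0.853) in pair 2, so the opposite signs exceeded counting error. HSP90B1, the ER form of HSP90 known as GRP94, behaved alike, at 945 with exosomes, against 677 with PBS, in pair 1 and 645 with exosomes, against 803 with PBS, in pair 2. The mean folds of 0.16 ± 0.26 and 0.08 ± 0.25 (SE, n = 2 pairs, limma adjusted p = 0.843 and 0.926) average over these opposite signs. Whether the effect differs between the pairs could not be tested, since each pair has 1 library per group.

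Partners of BiP showed the same order. DNAJB11, the luminal J protein ERdj3, stood at 157 with exosomes, against 111 with PBS, in pair 1 and at 87.3 with exosomes, against 120 with PBS, in pair 2. DNAJC3, a J protein and inhibitor of the stress kinase PERK, stood at 200 with exosomes, against 155 with PBS, in pair 1 and at 110 with exosomes, against 142 with PBS, in pair 2, so that its folds of 0.37 and -0.37 cancelled. HSPA13, an HSP70 relative of the microsomes, stood at 123 with exosomes, against 67.3 with PBS, in pair 1 and at 47.2 with exosomes, against 55.3 with PBS, in pair 2, with the widest gap between the pairs in the ER set (folds of 0.86 and -0.22). In all 5 of these genes the exosome library of pair 1 was the highest of the 4 and the exosome library of pair 2 the lowest.

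DNAJB9, the J protein ERdj4, which is induced by the IRE1 and XBP1 branch of the unfolded protein response, was higher in both pairs but unevenly. It stood at 88.8 with exosomes, against 42.8 with PBS, in pair 1 and at 28.2 with exosomes, against 23.6 with PBS, in pair 2. Its pairs gave 1.04 and 0.25 on the log2 scale (0.64 ± 0.25, SE, n = 2 pairs, limma adjusted p = 0.233), and without the exosome library of pair 1 the fold was -0.17. The counting interval of its ratio was 1.87 to 2.31 in pair 1 and 1.01 to 1.42 in pair 2. XBP1 itself, which is no member and was measured as a plasma cell marker, stood at 225 and 96.8 with exosomes and at 144 and 93.9 with PBS.

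**Figure D3:**
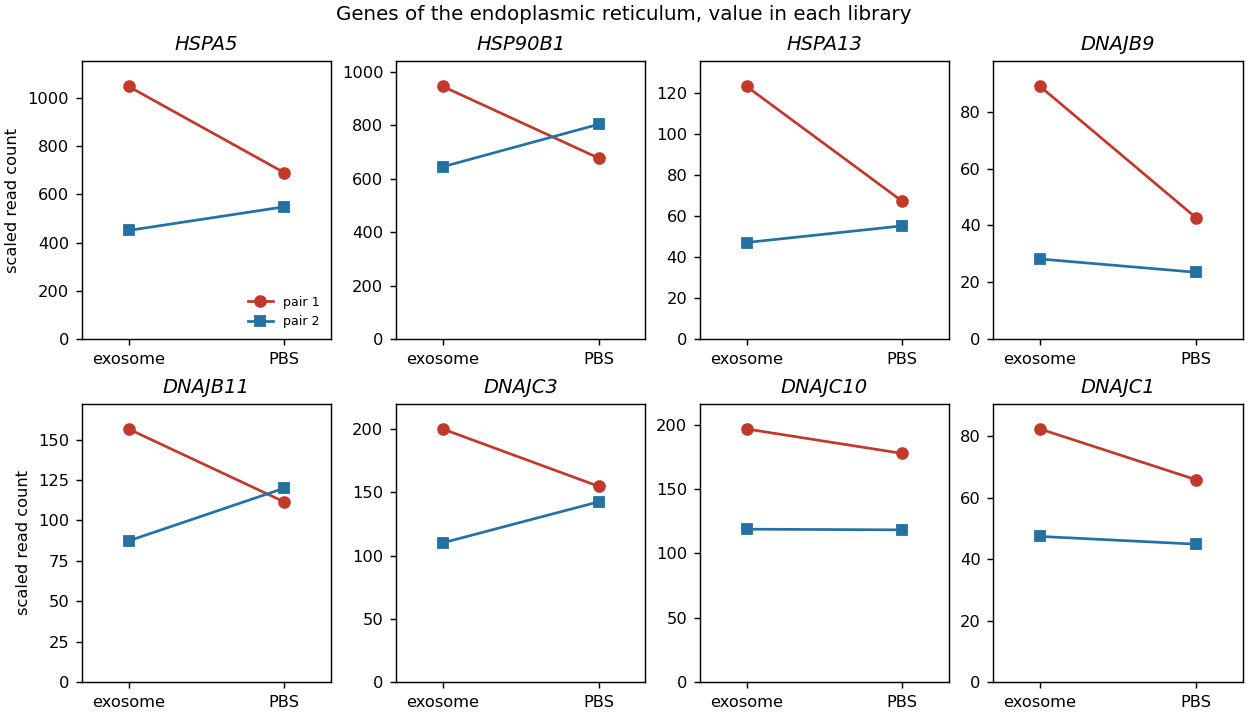
Scaled read count (y axis, from 0) of 8 ER genes in the exosome and PBS libraries, with a line joining the libraries of a pair (circles, pair 1; squares, pair 2). HSPA5, HSP90B1, HSPA13, DNAJB11 and DNAJC3 slope in opposite directions in the pairs, whereas DNAJB9 is higher at the exosome end in both.

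The ER membrane J proteins varied less. DNAJC16 stood at 78.1 and 68.2 with exosomes, against 60.8 and 59.9 with PBS, and DNAJB14 at 38.7 and 39.6 with exosomes, against 31.8 and 36.9 with PBS, and for both genes the exosome libraries were the higher ones. DNAJC1 had folds of 0.32 and 0.08 and DNAJB12 of 0.28 and -0.03. DNAJC10, a luminal J protein that reduces disulfides, had 0.15 and 0.01, and DNAJC18 was the sole ER member lower in both pairs (-0.17 and -0.19). The row of DNAJC14 also carries a symbol of an unnamed locus and had folds of -0.00 and 0.25.

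Taking the 13 ER members as a group, 11 were higher in pair 1 (84.6%, where 48.2% of all genes were) and 7 were lower in pair 2 (53.8%, against 52.9%). Among them 6 were both higher in pair 1 and lower in pair 2 (46.2%, against 20.4%). Their median was 0.36 in pair 1 and -0.03 in pair 2 on the log2 scale. A fold of 0.25 or above in pair 1 with one of -0.25 or below in pair 2, limits set after the values were seen, was found for 4 ER members (HSPA5, HSP90B1, DNAJB11 and DNAJC3), or 30.8%, and for 1 cytosolic member, DNAJC21, a J protein of ribosome assembly. It was found for 2.95% of all genes. The summed scaled count of the 13 genes was 3120 and 1798 with exosomes and 2241 and 2095 with PBS, and this sum follows mainly HSPA5 and HSP90B1.

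The mitochondrial chaperones HSPA9 and HSPD1 differed little in pair 1 and were lower with exosomes in pair 2. HSPA9, the mitochondrial HSP70 known as mortalin, stood at 243 and 271 with exosomes and at 220 and 342 with PBS. HSPD1, the chaperonin HSP60, stood at 213 and 265 with exosomes and at 213 and 376 with PBS. The HSPD1 ratio was 0.997 (counting interval 0.942 to 1.06) in pair 1 and 0.704 (0.671 to 0.738) in pair 2, a log2 fold of -0.25 ± 0.24 (SE, n = 2 pairs, limma adjusted p = 0.692). HSPE1, the lid of HSP60 and its direct neighbour in the naming reference, stood at 24.9 and 64.4 with exosomes and at 28.8 and 71.1 with PBS, but its row also carries COQ10B and a further symbol.

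Of the mitochondrial J proteins, DNAJA3, also called TID1, stood at 27.4 and 40.6 with exosomes and at 25.7 and 43.5 with PBS, a difference within counting error in both pairs (ratio intervals 0.907 to 1.26 and 0.817 to 1.06). DNAJC11, which binds the complex that shapes the inner membrane, stood at 34.5 and 36.1 with exosomes and at 42.2 and 48.2 with PBS, so that both exosome values were the lower ones, beyond counting error in each pair (ratio intervals 0.712 to 0.937 and 0.656 to 0.855). DNAJC19 and DNAJC15, J proteins of the import motor, had folds of -0.21 and 0.11 in pair 1 and of 0.02 in pair 2. DNAJC30 stood at 2.86 and 4.64 with exosomes and at 6.51 and 3.08 with PBS, from 29 and 59 reads with exosomes and 83 and 29 with PBS. The median of the 8 mitochondrial members was -0.10 in pair 1 and -0.12 in pair 2, and 3 were lower and 1 higher in both pairs.

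**Figure D4:**
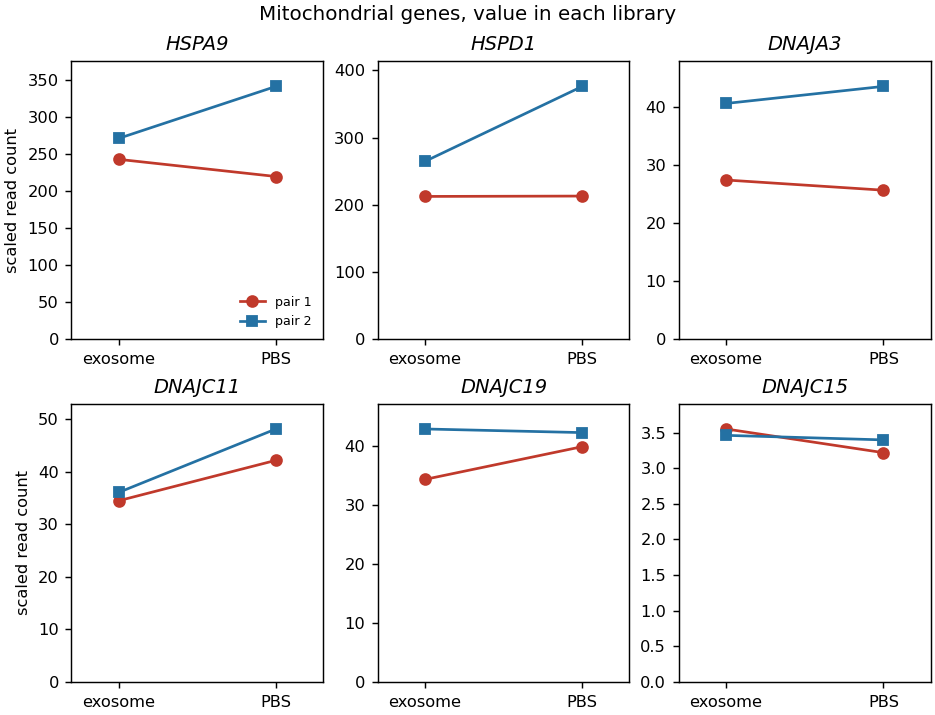
Scaled read count (y axis, from 0) of 6 mitochondrial genes in the exosome and PBS libraries, with a line joining the libraries of a pair (circles, pair 1; squares, pair 2). HSPD1 is level in pair 1, at 213 in both libraries, and lower with exosomes in pair 2, at 265 with exosomes and 376 with PBS.

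Seen by protein class instead of compartment, all 9 HSP70 and HSP110 members and all 3 HSP90 members were lower with exosomes in pair 2. Their log2 folds were between -0.79 and -0.22 for HSP70 and HSP110 and between -0.60 and -0.32 for HSP90. The -0.60, and the -1.78 given below for pair 1, belong to the row that HSP90AB1 shares with SLC29A1. The reads of that row cannot be given to either gene. Relatives that the symbol rule leaves out are not in this count. Of these, HYOU1 had -0.09 and TRAP1, an HSP90 of mitochondria, 0.25 in pair 2. In that pair 52.9% of all genes were lower. In pair 1 the same 12 genes spread from -1.78 to 0.86, with HSPA5, HSPA13, HSP90B1, HSPA9, HSPA4 and HSPA4L above 0. This count was made after the values were seen and has no test.

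Of the 5 members in the remaining class, DNAJC4, a membrane J protein, was higher in both pairs. It stood at 34.0 and 22.3 with exosomes and at 20.8 and 12.2 with PBS, a log2 fold of 0.68 in pair 1 and 0.82 in pair 2. It was the single member with 0.5 or above in both pairs, which 2.47% of all genes had. Its mean fold was 0.75 ± 0.23 (SE, n = 2 pairs, limma adjusted p = 0.123, from 0.0243 to 0.999 over the 9 alternatives with all libraries), or 0.39 without the PBS library of pair 2. DNAJC25, a membrane J protein, stood at 46.2 with exosomes, against 22.2 with PBS, in pair 1 and at 27.1 with exosomes, against 28.9 with PBS, in pair 2. DNAJC13, an endosomal J protein, stood at 215 and 167 with exosomes and at 219 and 226 with PBS. The row of DNAJC6, a J protein of clathrin uncoating, is shared with AK4 and stood at 24.9 and 2.75 with exosomes and at 34.7 and 4.88 with PBS. HSPB11, a subunit of intraflagellar transport, was nearly level at 11.8 and 10.1 with exosomes and 11.6 and 9.02 with PBS. DNAJB13, a J protein of cilia and sperm tails that counts among the cytosolic members, stood at 12.9 and 23.0 with exosomes and at 25.0 and 20.6 with PBS.

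The authors also compared the libraries of each pair, by DEGseq. With their limits of 1.5-fold and an unadjusted p under 0.05, the authors' deposited table of pair 1 has DNAJB9, DNAJC25, HSPA13 and HSPA5 as higher and DNAJB13, HSP90AB1, HSPA2 and HSPA8 as lower, which is 6.9% of the members in either direction, where 5.25% and 6.49% of its genes pass. The authors' deposited table of pair 2 has DNAJB2 as higher and DNAJC9, HSP90AB1 and HSPA8 as lower, which is 1.69% and 5.08% of the members, where 1.99% and 2.95% of its genes pass. In the authors' deposited table of pair 2, HSPA5 had p = 0.0577 and so did not pass. These p-values compare 1 library with 1 library, not the conditions. The symbols HSPA8 and HSP90AB1 pass in the same direction in both tables.

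The libraries of the 2 pairs also differed from each other in these genes. Since the authors' factors were within 0.894% of factors computed over all 4 libraries together, levels were set side by side across the tables, without a test. Relative to pair 1, ER members in pair 2 had a median log2 difference of -0.72 between the exosome libraries and -0.12 between the PBS libraries. Cytosolic members had 0.17 and 0.41, mitochondrial members 0.31 and 0.41, and all genes -0.01 and 0.01. Between the exosome libraries 11 of 13 ER members were lower in pair 2, and between the PBS libraries 10 of 13 were, against 50.6% and 49% of all genes. Of the cytosolic members, 22 of 32 were higher in pair 2 between the exosome libraries and 24 of 32 between the PBS libraries, against 49.4% and 51% of all genes.

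Other parts of the folding machinery, listed by role, held 0 called genes. TRiC, the cytosolic chaperonin that folds actin and tubulin, and its partner prefoldin had 11 of 14 genes lower in both pairs (78.6%, against 32.5% of all genes), 2 higher in both and medians of -0.23 and -0.34. CCT5, a TRiC subunit, stood at 81.8 and 146 with exosomes and at 151 and 254 with PBS (-0.84, limma adjusted p = 0.0876). CCT3, another subunit, stood at 124 and 162 with exosomes and at 177 and 251 with PBS (-0.57, limma adjusted p = 0.245). At an unadjusted p under 0.05, 2 genes of this list were lower (14.3%, against 9.96% of all genes) and 0 were higher (against 5.95%).

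Cochaperones of HSP90 were lower in both pairs for 11 of 19 genes and higher for 3 (57.9% and 15.8%), with medians of -0.07 and -0.14. FKBP5, an immunophilin that is bound to HSP90 with the glucocorticoid receptor, stood at 116 and 162 with exosomes and at 211 and 204 with PBS (-0.60, limma adjusted p = 0.243). TOMM34, which passes proteins to mitochondrial import, stood at 69.0 and 52.3 with exosomes and at 47.1 and 34.5 with PBS (0.56, limma adjusted p = 0.246). Partners and exchange factors of HSP70 were mixed, with 2 of 9 lower and 2 higher in both pairs (22.2% each) and medians of -0.02 and 0.06. BAG1, an exchange factor, stood at 112 and 103 with exosomes and at 134 and 157 with PBS, while BAG2, a relative with the opposite sign, stood at 8.97 and 5.11 with exosomes and 6.75 and 2.65 with PBS. HYOU1, the HSP110 protein of the ER, stood at 316 with exosomes, against 244 with PBS, in pair 1 and at 205 with exosomes, against 218 with PBS, in pair 2. It therefore showed the same signs as HSPA5.

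Mitochondrial folding factors and proteases were almost level. Their medians were 0.05 and -0.05, and 3 of 8 were lower and 2 higher in both pairs (37.5% and 25%). YME1L1, an inner membrane protease, stood at 533 and 336 with exosomes and at 415 and 334 with PBS, and HSCB, the J protein of iron-sulfur cluster assembly, at 15.3 and 15.6 with exosomes and 13.5 and 13.8 with PBS.

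**Figure D5:**
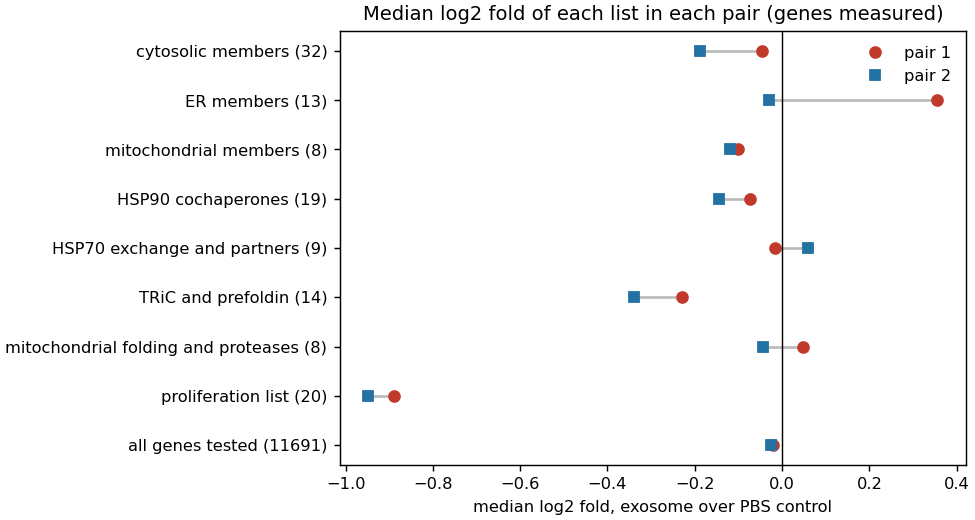
Median log2 fold, exosome over PBS (x axis), of the 3 compartments, the 4 lists of related folding genes, the proliferation list and all genes tested, in pair 1 (circles) and pair 2 (squares), with the number of genes in brackets. The ER members have the widest gap between the pairs, 0.36 against -0.03, and the proliferation list lies lowest in both.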

How the data were processed

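RNA of CD8+ T cells from dogs was made into mRNA libraries with a KAPA kit, per the labels' protocols. The submitters' processing notes name the build CanFam3.1, featureCounts 1.6.0, HISAT2 2.1.0 and Trimmomatic 0.38, without settings or strand. The deposited log records that the authors kept 11838 of 30951 genes and dropped 89 and 58 outliers, and each table compares 1 exosome with 1 PBS library by DEGseq, per the file headers and log. Each deposited signal is a read count over a factor of its library. A score column deposited by the authors averages the 2 signals and was left aside. The log2 ratios deposited by the authors are exosome over PBS. The authors' p-values compare single libraries.

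Every value (100%) was a whole multiple of its column's smallest (tolerance 0.001), so reads were recovered. The total depth is unknown. Columns name only exosome or PBS, so the table gave the pair, used as the block. Deviations of same-pair libraries from their group means correlated at 0.818 over genes, a value that 2 pairs share by construction. The pairing comes from the deposited tables, which set samples of 1 number and sex against each other, and from the design text, which calls them independent experiments with healthy dogs.

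limma 3.58.1 (R 4.3.3) was fitted to log2(scaled count + 1) of all 11691 shared genes, with Benjamini-Hochberg adjustment over all of them and a threshold of 0.05. As alternatives on recovered reads, DESeq2 1.42.0 and edgeR 4.0.16 (quasi-likelihood) were used, and the code was tested on simulated data. Members, compartments and lists were chosen with earlier results of these data known. Values were given for members called over all genes, those with the same sign and a fold of at least 0.5 in both pairs, HSF1, HSF2, BAG3, the main chaperones, and the 4 with opposite signs and the widest gap where each pair's higher library held at least 50 reads. Of related lists, the 2 genes with the largest mean fold were named. XBP1, HYOU1, TRAP1, DNAJB2 and the remaining members were added after their values were seen. The 58 members matched the naming reference UU_Cfam_GSD_1.0, used for names and neighbours. The rows of HSP90AB1, HSPE1, DNAJC6, DNAJC14 and DNAJC24 carry 2 or more symbols and are uncertain. No sequence was used.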

Additional observations from a re-analysis of the deposited data

Results flagged for a closer look

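In 12 of the members described above, the exosome library was higher than its PBS library in one pair and lower in the other. The log2 fold in pair 1 minus that in pair 2 was 1.12 for DNAJC25, 1.09 for HSPA13, 0.94 for DNAJB11, 0.88 for HSPA5, 0.80 for HSP90B1, 0.74 for DNAJC3, 0.48 for HSPA9, 0.38 for HSPA4 and 0.19 for DNAJA3. It was -0.52 for BAG3, -1.05 for DNAJB13 and -1.43 for DNAJC30. These differences were not tested, because each pair holds 1 library per group, and opposite signs were common: 20.4% of all genes were higher in pair 1 and lower in pair 2, and 19.3% the other way round. Dog, sex and the hours in the column names all differ between the pairs and cannot be told apart. Of the 12, BAG3 had 1 read with exosomes and 4 with PBS in pair 1, and DNAJC30 had 29 reads with exosomes in pair 1 and 29 with PBS in pair 2.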

How the results depend on the processing

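By limma, 29 genes were called higher and 58 lower with exosomes, and these counts depended on the settings. They were 202 and 408 with a pseudocount of 5, 211 and 445 with a mean scaled count of at least 10, 59 and 101 by DESeq2 and, chosen after seeing the data, 205 and 402 with a variance trend. They were 0 and 0 with a pseudocount of 0.1 (unadjusted p under 0.05 for 565 and 1006), scaling by totals (613 and 873), TMM scaling (567 and 933), edgeR (655 and 985), no replicate block (86 and 123) and, without each library in turn, 0 to 0 (32 to 163 and 28 to 205). Thus members were called under some settings: HSPA8 and HSP90AB1 under 4, DNAJC4 under 2 (pseudocount 5 and mean of at least 10). The fit without the replicate block called 0 members. Without J proteins the cytosolic medians moved to -0.20 in pair 1 and -0.36 in pair 2, and the ER medians to 0.60 and -0.28, with 3 genes left. The ER median in pair 2, near 0, was above 0 with totals (0.0458) and TMM (0.0004). Mitochondrial medians in pair 1 were -0.14 with totals, -0.11 with TMM, and -0.0036 with 1-symbol rows or without J proteins, and in pair 2 they were -0.0437, -0.09, -0.0985 and -0.33, and -0.24 with a mean of at least 10. In pair 2, totals gave -0.0667 for HSP90 cochaperones, 0.13 for HSP70 exchange factors (-0.0157 with a mean of at least 10) and 0.0318 for mitochondrial folding. The ER medians and the others, 67 values in all, stayed within the wide spread between pairs. Signs turned only for members close to 0 when all libraries were kept: DNAJC3 was 0.0010 with a pseudocount of 5, 0.02 with totals, 0.0079 with TMM, 0.0092 by edgeR and 0.0104 by DESeq2. BAG3 was 0.0459 (pseudocount 5), 0.0289 (totals), 0.0109 (TMM) and 0.0277 (edgeR), and DNAJA3 was 0.0172 (totals), 0.0051 (TMM), 0.0043 (edgeR) and 0.0063 (DESeq2). Without each library in turn, the sign turned for 16 of the 26 members named by rule: BAG3 ran from -1.26 to 1.26, DNAJA3 from -0.37 to 0.37, DNAJB11 from -0.40 to 0.43, DNAJB13 from -0.77 to 0.0154, DNAJB9 from -0.17 to 1.45, DNAJC3 from -0.43 to 0.43, DNAJC30 from -0.69 to 0.19, HSF1 from -0.10 to 0.56, HSP90AB1 from -2.39 to 0.0183, HSP90B1 from -0.19 to 0.36, HSPA13 from -0.36 to 1.00, HSPA4 from -0.38 to 0.0526, HSPA5 from -0.45 to 0.77, HSPA9 from -0.41 to 0.22, HSPD1 from -0.66 to 0.15 and HSPE1 from -0.84 to 0.50. The other 10 kept their sign but mostly not their size: HSPA8 ran from -1.58 to -0.27, HSPBP1 from -1.39 to -0.51, DNAJC9 from -0.99 to -0.25, HSPH1 from -0.98 to -0.08, HSP90AA1 from -0.52 to -0.05, DNAJC4 from 0.39 to 1.11 and DNAJC25 from 0.09 to 0.84, while DNAJA1 (-0.53 to -0.40), DNAJB1 (-0.48 to -0.29) and HSF2 (0.35 to 0.43) moved less. These fits have no pair block, so each sets a single library against the mean of a group drawn from both pairs. Their folds therefore include the level difference between the pairs, and cannot show what the left-out library alone contributed. HSP90AB1, for example, had 0.0183 without the exosome library of pair 1, though its fold within pair 2 was -0.60. With 2 pairs and 1 residual degree of freedom, adjusted p-values rest on variance borrowed from all genes, and BAG3, DNAJC30, HSPBP1 and DNAJC12 are limited by depth.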

Other observations

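Ratios between 2 genes within a library need no scaling, and the following were chosen after the values were seen. HSPA5 over HSPA8, the HSP70 of the ER over that of the cytosol, was 1.73 with exosomes, against 0.546 with PBS, in pair 1 and 0.301 with exosomes, against 0.212 with PBS, in pair 2. The exosome ratio exceeded the PBS ratio 3.18-fold in pair 1 and 1.42-fold in pair 2. In pair 2 HSPA5 was itself lower with exosomes, at 0.822 of its PBS value, against 0.578 for HSPA8. The higher ratio in that pair therefore follows HSPA8, and no shared ER difference can be read from it. HSP90B1 over HSP90AA1, the same comparison for HSP90, was 1.69 with exosomes, against 1.05 with PBS, in pair 1 and 0.931 with exosomes, against 0.899 with PBS, in pair 2. HSPA9 over HSPA8, mitochondrial over cytosolic HSP70, was 2.31-fold and 1.37-fold higher with exosomes, and HSPD1 over HSPA8 was 2.09-fold and 1.22-fold higher. In these last pairs of genes the difference follows HSPA8, whose own ratios were 0.478 and 0.578. Within the ER, HSP90B1 over HSPA5 was nearly level, at 0.919-fold and 0.977-fold. A ratio shows unequal difference of 2 genes, not that one of them was level.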
